A study of Mus musculus with 28 samples.

Results

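The response of the liver to a high-fat/cholesterol diet (HFC) was measured in female mice that had lost c-Myc from endothelial cells (EC-Myc KO). The comparison takes 6 of the 28 libraries of the series, all from the count table of 12 female animals. KO animals 412, 413 and 419 had eaten HFC, and KO animals 307, 309 and 317 a low fat control diet (CTD). All 6 mice were C57BL/6 females with the label EC-Myc KO. They received tamoxifen at 5 weeks of age to switch on Cre, went onto their diet 2 weeks later and stayed on it for 5 weeks. Their labelled age was 13 weeks. Total RNA came from snap-frozen whole liver, 1 library per animal, sequenced on the DNBSEQ platform of BGI. Floxed control females (CT) given the same tamoxifen and the same diets, 3 per diet, and EC-Myc KO males, 4 per diet, serve below as comparisons. The Cre driver is not given in the sources used here. The labels name no cohort or batch. No CTD animal number falls among the HFC numbers, so any batch that followed the numbers could not be told apart from diet.

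A diet rich in cholesterol loads hepatocytes with sterol. As background, hepatocytes respond by closing down cholesterol synthesis through the SREBP2 transcription factor, by opening sterol export through LXR, and by adjusting the conversion of cholesterol to bile acids through FXR. Endothelial cells line the sinusoids, where they meet macrophages, stellate cells and blood, and c-Myc is a transcription factor best known for driving growth and division. Mouse liver is also strongly sex-biased: pulses of pituitary growth hormone set which cytochrome P450, sulfotransferase and urinary protein genes females and males express.

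Library totals were close, at 18786081 to 19195502 counts, and 17230 to 17934 genes had at least 1 count. Values are CPM (counts scaled to library size) after TMM scaling, given for animals 307, 309 and 317 (CTD) and then 412, 413 and 419 (HFC) unless animals are named, and fold changes are log2 of HFC over CTD. Hepatocyte genes dominated every library, and albumin (Alb) was at 145720, 141900 and 124760 CPM in CTD livers and 80120, 88616 and 78445 CPM in HFC livers. Adipose and skeletal muscle markers summed to under 2 CPM in each liver. Exocrine pancreas markers summed to 13.2, 10.3 and 14.8 CPM in CTD livers and 5.11, 4.46 and 4.33 CPM in HFC livers, without overlap. Of 2 tested pancreas markers, 1 fell. TMM factors lay between 0.8896 and 0.9389 in CTD livers and between 1.106 and 1.167 in HFC livers. Scaling by library totals alone moved the median fold change of all tested genes from 0.02 to 0.32, and every change reported here is relative to TMM scaling. The libraries on HFC were less alike than those on CTD. Over the 500 most variable genes the first principal component held 69.4% of the variance, with the CTD livers at -30.81 to -25.51 and the HFC livers at 42.07 (412), 7.957 (413) and 32.11 (419). HFC 413 therefore lay nearest to the CTD group, and list counts below are also given without it where that moves them by over 1.5 times. In bulk tissue, fewer cells of a type and less RNA per cell cannot be told apart.

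HFC changed 1202 of 13999 tested genes in KO female livers (8.59%, edgeR quasi-likelihood test, adjusted p under 0.05). Of these, 551 rose (3.94%) and 651 fell (4.65%). These shares are the background for the list counts below. The deepest falls included genes of bile acid synthesis (Cyp8b1), a female-type cytochrome P450 (Cyp3a41a), a sulfotransferase (Sult3a1) and a urinary protein (Mup19). The largest rises included glutathione transferases (Gsta1, Gstm3) and Gpnmb, a gene of lipid-handling macrophages. The median change was 1.02 among risen genes and -0.94 among fallen ones, with 283 rises and 299 falls of at least 2-fold and 88 of each of at least 4-fold. On library totals, 3358 genes rose and 380 fell. The 3 HFC and 3 CTD animals did not overlap at 3689 genes (26.4%), 1711 higher on HFC (12.2%) and 1978 lower (14.1%). Among called genes the animals overlapped at only 16 of the 551 risen and 0 of the 651 fallen genes. A lack of overlap at a called gene below therefore adds little to the call.

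**Figure D1:**
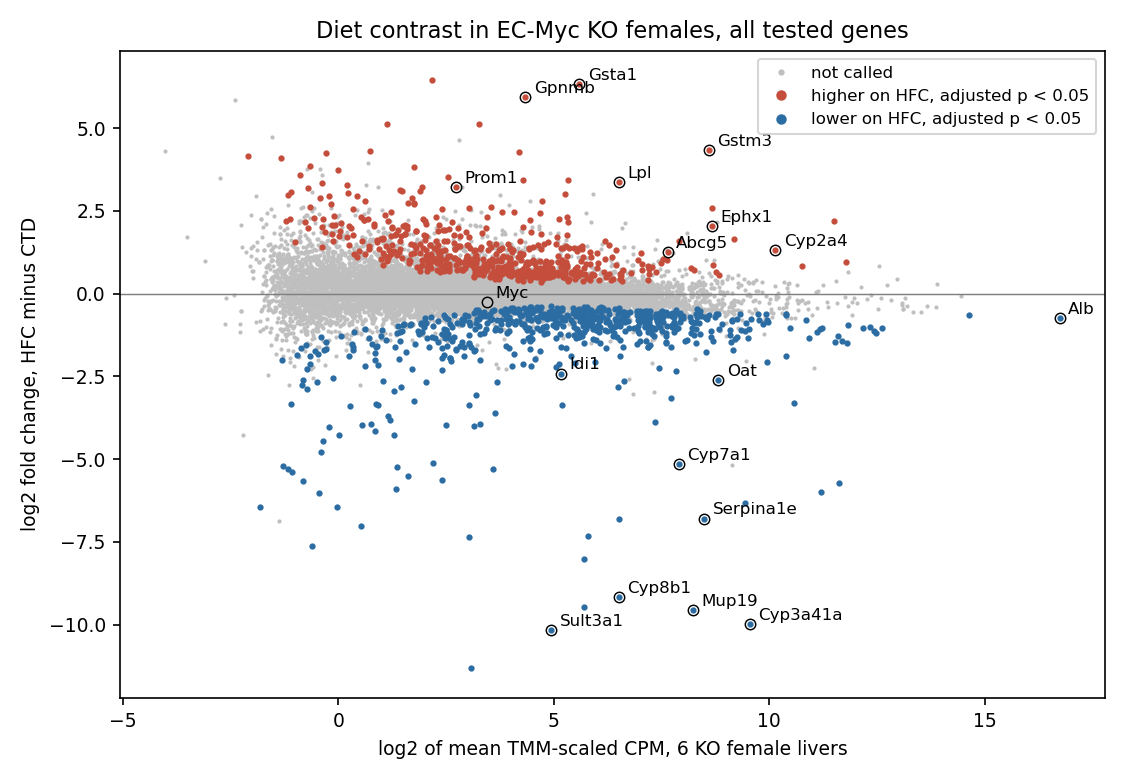
Log2 fold change of HFC over CTD (vertical axis) against log2 of the mean TMM-scaled CPM of the 6 KO female livers (horizontal axis), 1 point per tested gene, with the 551 risen genes in red, the 651 fallen genes in blue and named genes ringed. Cyp3a41a, Sult3a1, Cyp8b1 and Mup19 lie below -9, while Myc lies near 0 among the genes not called.

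HFC 413 lay closest to the CTD livers at most of these genes. It was the HFC animal nearest to the CTD mean at 358 of the 551 risen genes (65.0%) and at 431 of the 651 fallen ones (66.2%). Relative to the CTD mean, the risen genes had median values of 1.12, 0.61 and 0.88 in HFC 412, 413 and 419, and the fallen genes of -1.11, -0.71 and -0.91. HFC 412 was the farthest from CTD at 365 of the risen genes (66.2%) and 417 of the fallen ones (64.1%). Without HFC 413 the call count was 2671 (1403 higher, 1268 lower), and 1158 of the 1202 genes were among them. Leaving out any of the other 5 animals gave 565 to 765 calls. A gene described below as lost without an animal had an adjusted p of at least 0.05 in the fit that left that animal out.

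**Figure D2:**
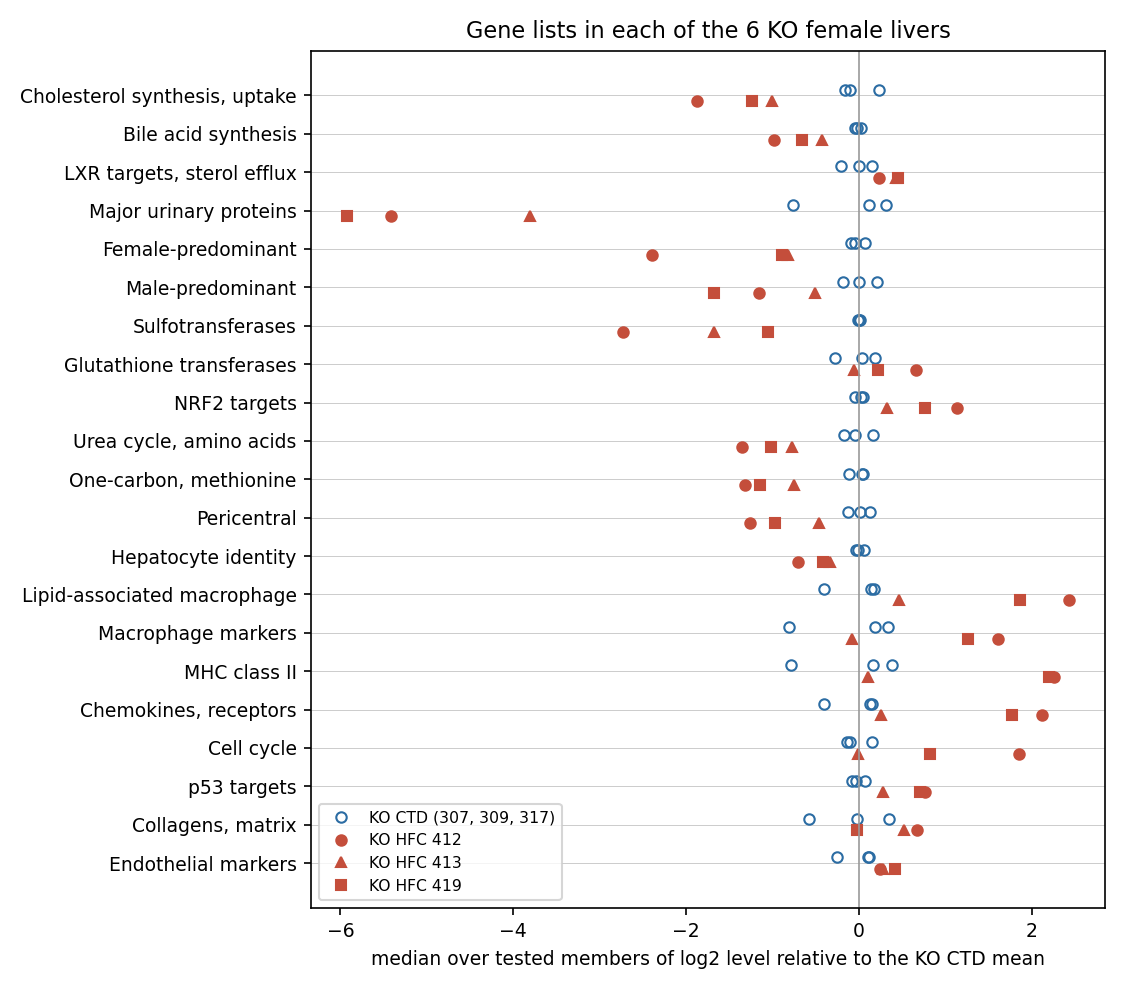
For each gene list, the median over its tested members of the log2 level relative to the KO CTD mean (horizontal axis), 1 symbol per liver. The 3 HFC livers (filled) lie left of the CTD livers (open) for cholesterol synthesis, bile acid synthesis and nitrogen metabolism, while for macrophage, MHC class II and cell cycle lists HFC 413 lies among the CTD livers.

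Myc (chr15:61985391-61990374, GRCm38) was measured first as the targeted gene. Its level was 7.26, 20.5 and 7.81 CPM in the CTD livers and 12.1, 4.65 and 13.3 CPM in the HFC livers. The groups overlapped in part, with HFC 413 below every CTD liver and CTD 309 above every HFC liver, and the fold change was -0.24 ± 0.55 SE (adjusted p = 0.816). That sign is not stable: it was 0.05 on library totals, 0.41 without CTD 309 and 0.10 without HFC 413. Floxed control females held 7.34 ± 4.04 CPM on CTD and 6.52 ± 2.82 CPM on HFC (SD, n = 3). Myc is also made outside the endothelium, and its level in whole liver is no check of the deletion. Of 27 genes of ribosome biogenesis that Myc is known to drive, 1 rose and 1 fell, with a median of 0.06. For ribosome biogenesis, 10 rose and none fell on library totals (median 0.36), none rose without CTD 309, 5 rose without HFC 413 and none fell without CTD 307 or CTD 309. The riser was the nucleolar GTPase Gnl3 (log2 0.60 ± 0.12 SE, adjusted p = 0.0101, lost without CTD 309, adjusted p 0.0502), and the faller the polyamine enzyme Odc1 (log2 -0.72 ± 0.16 SE, adjusted p = 0.0147, lost without CTD 307 or CTD 309, adjusted p 0.0505 to 0.0622).

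Cholesterol synthesis fell as a group. Among 25 genes that make or take up cholesterol, 19 fell, none rose and all 25 had negative fold changes, with a median of -1.33 against 0.02 over all tested genes. There were 12 to 21 falls in fits without 1 animal, with 12 without CTD 309. Idi1, which makes the allylic isoprene unit, was at 56.7, 81.9 and 43.5 CPM in CTD livers and 7.03, 14.4 and 12.8 CPM in HFC livers. Every HFC liver lay below every CTD liver (log2 -2.41 ± 0.34 SE, adjusted p = 0.00218). The sterol dehydrogenase Nsdhl was at 35.7, 43.4 and 34.4 CPM in CTD livers and 11.5, 9.58 and 7.73 CPM in HFC livers, again without overlap (log2 -1.98 ± 0.24 SE, adjusted p = 0.000757). Cyp51, the lanosterol demethylase, was at 49.4, 66.3 and 47.8 CPM in CTD livers and 14.8, 20.2 and 18.5 CPM in HFC livers (log2 -1.61 ± 0.22 SE, adjusted p = 0.00152). The sterol reductase Tm7sf2 (log2 -1.88 ± 0.23 SE, adjusted p = 0.000757), the ketoreductase Hsd17b7 (log2 -1.33 ± 0.21 SE, adjusted p = 0.00233) and the final reductase Dhcr7 (log2 -1.67 ± 0.26 SE, adjusted p = 0.00244) fell too. The 25 genes summed to 1849.8, 2479.6 and 1997 CPM in the CTD livers and 659, 1282 and 955 CPM in the HFC livers, lowest in HFC 412. Members named after their values were seen show the range within the pathway. The epoxidase Sqle (log2 -2.13 ± 0.34 SE, adjusted p = 0.00402) and the regulator Srebf2 (log2 -0.97 ± 0.17 SE, adjusted p = 0.00545) fell. Hmgcs1, an early synthase of the pathway, did not pass (log2 -0.30 ± 0.27 SE, adjusted p = 0.523).

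The promoters of 3 of these genes are printed to show a sequence feature that the list shares. Each run is the 250 bases before the RefSeq start site on GRCm38.p6, in the direction of transcription, and capitals mark CCAAT, the core of the box bound by the factor NF-Y, or its reverse complement. Idi1 lies at chr13:8885356-8885605 on the plus strand, Nsdhl at chrX:72918271-72918520 on the plus strand and Cyp51 at chr5:4104698-4104947 on the minus strand.
Idi1: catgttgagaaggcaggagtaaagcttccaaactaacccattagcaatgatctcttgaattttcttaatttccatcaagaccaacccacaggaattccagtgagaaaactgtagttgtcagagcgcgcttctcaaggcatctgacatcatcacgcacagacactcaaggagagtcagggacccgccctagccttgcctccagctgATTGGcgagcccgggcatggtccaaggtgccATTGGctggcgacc
Nsdhl: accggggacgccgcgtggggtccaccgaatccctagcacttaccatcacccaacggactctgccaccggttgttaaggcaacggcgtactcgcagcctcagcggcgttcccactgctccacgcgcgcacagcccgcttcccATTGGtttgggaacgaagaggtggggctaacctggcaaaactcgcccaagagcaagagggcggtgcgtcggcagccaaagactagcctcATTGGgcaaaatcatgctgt
Cyp51: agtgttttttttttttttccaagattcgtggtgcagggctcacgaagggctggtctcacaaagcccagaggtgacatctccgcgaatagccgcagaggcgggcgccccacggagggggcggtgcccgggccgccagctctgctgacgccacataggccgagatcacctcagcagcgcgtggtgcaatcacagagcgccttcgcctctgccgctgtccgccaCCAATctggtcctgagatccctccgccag
On either strand, CCAAT occurred in 16 of the 17 cholesterol genes with a promoter in the RefSeq table (94.1%) and in 40.4% of all 10430 tested genes with one. Its matches began at -45 and -14 in Idi1, at -109 and -20 in Nsdhl and at -29 in Cyp51, counted from the start site. The sterol element written as TCACNCCAC matched 1 of the 17 promoters and 1.29% of all, and the looser TCACNNCAC matched 4 of 17 and 3.63% of all. A match describes these letters and does not show binding.

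Export of sterols moved the other way. Of 12 LXR targets, 4 rose and none fell, with a median of 0.42 and 3 to 5 rises in fits without 1 animal. For these targets, 8 rose and none fell on library totals (median 0.73). Abcg5, which with Abcg8 pumps sterol into bile, was at 99.8, 117 and 136 CPM in CTD livers and 252, 313 and 277 CPM in HFC livers (log2 1.26 ± 0.15 SE, adjusted p = 0.000757). Its partner Abcg8 was at 104, 122 and 135 CPM in CTD livers and 158, 319 and 266 CPM in HFC livers (log2 1.04 ± 0.21 SE, adjusted p = 0.0103, lost without CTD 307, adjusted p 0.0545). For both genes the lowest HFC liver was above the highest CTD liver, and HFC 412 was the lowest of the HFC animals. Abcg1, a cholesterol exporter prominent in macrophages, was at 5.02, 9.16 and 8.83 CPM in CTD livers and 44.2, 18.9 and 30.8 CPM in HFC livers (log2 2.03 ± 0.37 SE, adjusted p = 0.00819). Lipoprotein lipase (Lpl, chr8:68880491-68907448), which frees fatty acids from circulating lipoproteins, was at 11.1, 15.3 and 22.1 CPM in CTD livers and 277, 90.9 and 132 CPM in HFC livers (log2 3.37 ± 0.43 SE, adjusted p = 0.00175).

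Some fatty acid synthesis genes fell. Of 22 lipogenesis genes, 5 fell and none rose (median -0.46), with 1 to 9 falls in fits without 1 animal, with 1 without CTD 307 or HFC 412, 2 without CTD 309, CTD 317 or HFC 419 and 9 without HFC 413. For lipogenesis, 3 rose and 2 fell on library totals (median -0.16), 1 rose without HFC 412 or HFC 413 and the median was -0.71 without HFC 413. The 5 were the acetyl-CoA synthetase Acss2 (log2 -1.88 ± 0.36 SE, adjusted p = 0.0107, lost without HFC 412, adjusted p 0.0624), the lipogenic regulator Thrsp (log2 -1.62 ± 0.39 SE, adjusted p = 0.0267, lost without CTD 307 or CTD 309, adjusted p 0.0719 to 0.0845), the desaturase Fads1 (log2 -0.77 ± 0.20 SE, adjusted p = 0.0325, lost unless HFC 413 was left out, adjusted p 0.0611 to 0.118), the triglyceride synthase Dgat1 (log2 -0.44 ± 0.12 SE, adjusted p = 0.033, lost without CTD 307, CTD 317, HFC 412 or HFC 419, adjusted p 0.0763 to 0.128) and the phosphatidate phosphatase Lpin1 (log2 -1.48 ± 0.41 SE, adjusted p = 0.0473, lost without CTD 307, CTD 309, CTD 317, HFC 412, HFC 413 or HFC 419, adjusted p 0.0503 to 0.15). Among 22 genes of lipid droplets and lipid uptake, 3 rose and 2 fell (median -0.10). For that list, 9 rose and 1 fell on library totals (median 0.22), 5 rose without HFC 413, none fell without CTD 307, 1 fell without CTD 317 and the median was 0.25 without CTD 307 and 0.02 without HFC 413. The droplet coat protein Plin3 was at 30.5, 26.1 and 27.2 CPM in CTD livers and 48.1, 55.5 and 50.7 CPM in HFC livers (log2 0.88 ± 0.10 SE, adjusted p = 0.000708), and the fatty acid carrier Fabp2 at 39.3, 34.4 and 35.1 CPM in CTD livers and 133, 116 and 79.8 CPM in HFC livers (log2 1.60 ± 0.23 SE, adjusted p = 0.00157). Of 28 genes of fatty acid oxidation and PPARα signalling, 2 rose and 2 fell, with a median of -0.28. Calls in this list and the lipid droplet list stand beside 3.94% of all tested genes that rose and 4.65% that fell. For fatty acid oxidation, 3 rose and none fell on library totals (median 0.02), 1 rose without CTD 307, CTD 309, CTD 317, HFC 413 or HFC 419, none fell without CTD 307, CTD 309, CTD 317, HFC 412 or HFC 419 and 7 fell without HFC 413. The hormone Fgf21, secreted by stressed or fasted liver, was at 2.01, 1.61 and 1.02 CPM in CTD livers and 12.3, 4.36 and 10.6 CPM in HFC livers, with every HFC liver above the CTD livers (log2 2.56 ± 0.40 SE, adjusted p = 0.00233).

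Bile acid synthesis held some of the deepest falls. Of 15 genes, 7 fell and none rose (median -0.62), with 5 to 9 falls in fits without 1 animal. For this pathway, 2 rose and 5 fell on library totals (median -0.32). Cyp8b1 (chr9:121914356-121916305), the sterol 12-hydroxylase that makes cholic acid, was at 201, 196 and 149 CPM in CTD livers and 0.365, 0.285 and 0.283 CPM in HFC livers (log2 -9.16 ± 0.37 SE, adjusted p = 1.99e-08). The 3 HFC libraries together held 20 Cyp8b1 counts and the CTD libraries 9568, a 584-fold difference (95% counting interval 378 to 956, which leaves out the spread between animals). Cyp7a1 (chr4:6265612-6275633), the rate-limiting enzyme of the classic pathway, was at 433, 561 and 396 CPM in CTD livers and 7.63, 27.1 and 4.24 CPM in HFC livers (log2 -5.16 ± 0.64 SE, adjusted p = 0.00165, log2 -6.29 without HFC 413). HFC 413 kept the highest Cyp7a1 level of the HFC livers and was still below every CTD liver. The ring reductase Akr1d1 (log2 -1.17 ± 0.17 SE, adjusted p = 0.00178), the oxysterol hydroxylase Cyp7b1 (log2 -1.11 ± 0.20 SE, adjusted p = 0.00622), the side-chain hydroxylase Cyp27a1 (log2 -0.86 ± 0.17 SE, adjusted p = 0.0098) and the racemase Amacr (log2 -0.58 ± 0.14 SE, adjusted p = 0.0204, lost without CTD 309, CTD 317, HFC 412 or HFC 419, adjusted p 0.0564 to 0.078) fell as well.

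Bile acid transport genes moved in both directions. Of 15 tested genes of transport and FXR signalling, 2 rose and 2 fell, with a median of -0.01, beside 3.94% and 4.65% of all tested genes. For bile acid transport, 6 rose and 1 fell on library totals (median 0.28), 1 rose without CTD 309, HFC 412 or HFC 419, 1 fell without CTD 307, CTD 309, CTD 317, HFC 412 or HFC 419 and 4 fell without HFC 413. Slc10a1 (NTCP), the uptake carrier, was at 890.3, 875 and 851 CPM in CTD livers and 129, 395 and 283 CPM in HFC livers (log2 -1.70 ± 0.29 SE, adjusted p = 0.00444). Slc51b, a subunit of the basolateral exporter OSTα-OSTβ, was at 0.413, 0.611 and 0.679 CPM in CTD livers and 6.99, 1.99 and 5.89 CPM in HFC livers (log2 3.11 ± 0.60 SE, adjusted p = 0.0086). HFC 412 was at the extreme for both genes and HFC 413 nearest to CTD. The receptor FXR itself (Nr1h4) fell (log2 -0.54 ± 0.13 SE, adjusted p = 0.0196, lost unless HFC 413 was left out, adjusted p 0.0527 to 0.0673), while its target SHP (Nr0b2), a repressor, rose (log2 1.14 ± 0.31 SE, adjusted p = 0.0416, lost without CTD 309, HFC 412 or HFC 419, adjusted p 0.0735 to 0.15).

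Genes of sex-biased liver expression fell in the female and the male list alike. Of 29 tested female-predominant genes, 10 fell and 1 rose (median -1.23, 7 to 13 falls in fits without 1 animal). For the female list, the median was -0.80 without HFC 412. Of 20 tested male-predominant genes, 9 fell and 1 rose (median -1.05, 6 to 11 falls in fits without 1 animal). For the male list, 3 rose and 9 fell on library totals (median -0.75) and 2 rose without HFC 419. Gene lists share members, so their counts are not separate results. The male list held the urinary protein genes Mup7 and Mup12, the bile acid gene Cyp7b1 and, as its riser, the glutathione transferase Gstp1. Cyp3a41a (chr5:145694049-145720136), a female-specific cytochrome P450, was at 1155, 1680.1 and 1669 CPM in CTD livers and 1.1, 1.52 and 1.79 CPM in HFC livers (log2 -9.99 ± 0.68 SE, adjusted p = 6.01e-05). Every HFC liver was below 2 CPM. Cyp3a44, a relative, was at 64.5, 89.4 and 176 CPM in CTD livers and 0.457, 0.996 and 0.613 CPM in HFC livers (log2 -7.31 ± 0.65 SE, adjusted p = 0.000449), a 161-fold difference in counts (95% counting interval 120 to 222). Cyp3a16 held 6 counts on HFC and 873 on CTD (178-fold, 81.2 to 485, edgeR adjusted p = 0.00161), and Cyp3a41b held 0 and 895 (at least 364-fold lower, taking a floor of 3 counts over the group, edgeR adjusted p = 0.0117, lost without HFC 412, adjusted p 0.0534). Cyp3a41a and Cyp3a41b transcripts are 99.7% identical over their aligned span, and Cyp3a44 and Cyp3a16 are 94.9% and 92.1% identical to Cyp3a41a, so reads may have been split or lost between them. Cyp3a11, 94.2% identical to Cyp3a41a and expressed in both sexes, rose instead, from 2739, 2070.4 and 2378 CPM to 4129.5, 4093 and 5683 CPM (log2 0.95 ± 0.19 SE, adjusted p = 0.00843).

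The promoters of the 4 Cyp3a genes that fell and of Cyp8b1 are printed because their counts dropped to near 0 and 4 of them share a motif. Capitals mark CAAAGTCCA, a motif of the hepatocyte factor HNF4A, and the runs again are the 250 bases before the RefSeq start on GRCm38.p6, all on the minus strand. The positions are chr5:145720137-145720386 for Cyp3a41a, chr5:145584731-145584980 for Cyp3a41b, chr5:145469724-145469973 for Cyp3a16, chr5:145805875-145806124 for Cyp3a44 and chr9:121916306-121916555 for Cyp8b1.
Cyp3a41a: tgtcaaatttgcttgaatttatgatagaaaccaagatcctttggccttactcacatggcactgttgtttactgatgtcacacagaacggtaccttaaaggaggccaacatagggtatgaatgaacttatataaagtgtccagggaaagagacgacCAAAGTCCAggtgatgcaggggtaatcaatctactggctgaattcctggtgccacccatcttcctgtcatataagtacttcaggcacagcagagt
Cyp3a41b: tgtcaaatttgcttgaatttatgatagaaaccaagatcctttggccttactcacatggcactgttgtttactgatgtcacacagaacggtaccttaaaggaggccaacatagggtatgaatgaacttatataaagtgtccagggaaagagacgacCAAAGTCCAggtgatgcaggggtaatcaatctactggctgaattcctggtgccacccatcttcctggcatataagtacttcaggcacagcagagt
Cyp3a16: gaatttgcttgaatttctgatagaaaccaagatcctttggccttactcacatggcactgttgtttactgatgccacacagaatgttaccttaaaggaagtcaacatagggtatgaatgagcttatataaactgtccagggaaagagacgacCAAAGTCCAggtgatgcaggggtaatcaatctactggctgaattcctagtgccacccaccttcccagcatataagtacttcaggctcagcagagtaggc
Cyp3a44: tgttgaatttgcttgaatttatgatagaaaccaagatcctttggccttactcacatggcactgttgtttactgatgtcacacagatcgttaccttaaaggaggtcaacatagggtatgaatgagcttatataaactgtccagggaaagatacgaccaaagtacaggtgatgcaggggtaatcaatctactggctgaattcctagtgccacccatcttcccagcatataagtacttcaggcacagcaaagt
Cyp8b1: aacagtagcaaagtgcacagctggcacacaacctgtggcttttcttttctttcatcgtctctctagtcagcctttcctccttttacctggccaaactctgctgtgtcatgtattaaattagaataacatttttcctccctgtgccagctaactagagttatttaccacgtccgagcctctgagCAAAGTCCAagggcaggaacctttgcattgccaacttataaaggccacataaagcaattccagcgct
The motif began at -95 in Cyp3a41a and Cyp3a41b, at -99 in Cyp3a16 and at -67 in Cyp8b1, and the Cyp3a44 window held no match. On either strand it occurred in 59 of the 10430 promoters (0.57%), in 5 of 23 female-predominant genes with a promoter and in 2 of 8 bile acid synthesis genes. The promoters of Cyp3a41b and Cyp3a16 are 99.6% and 93.9% identical to that of Cyp3a41a, so the matches in these Cyp3a genes are not independent. The Cyp3a44 promoter, without a match, is 94.4% identical to it. Binding was not measured.

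**Figure D3:**
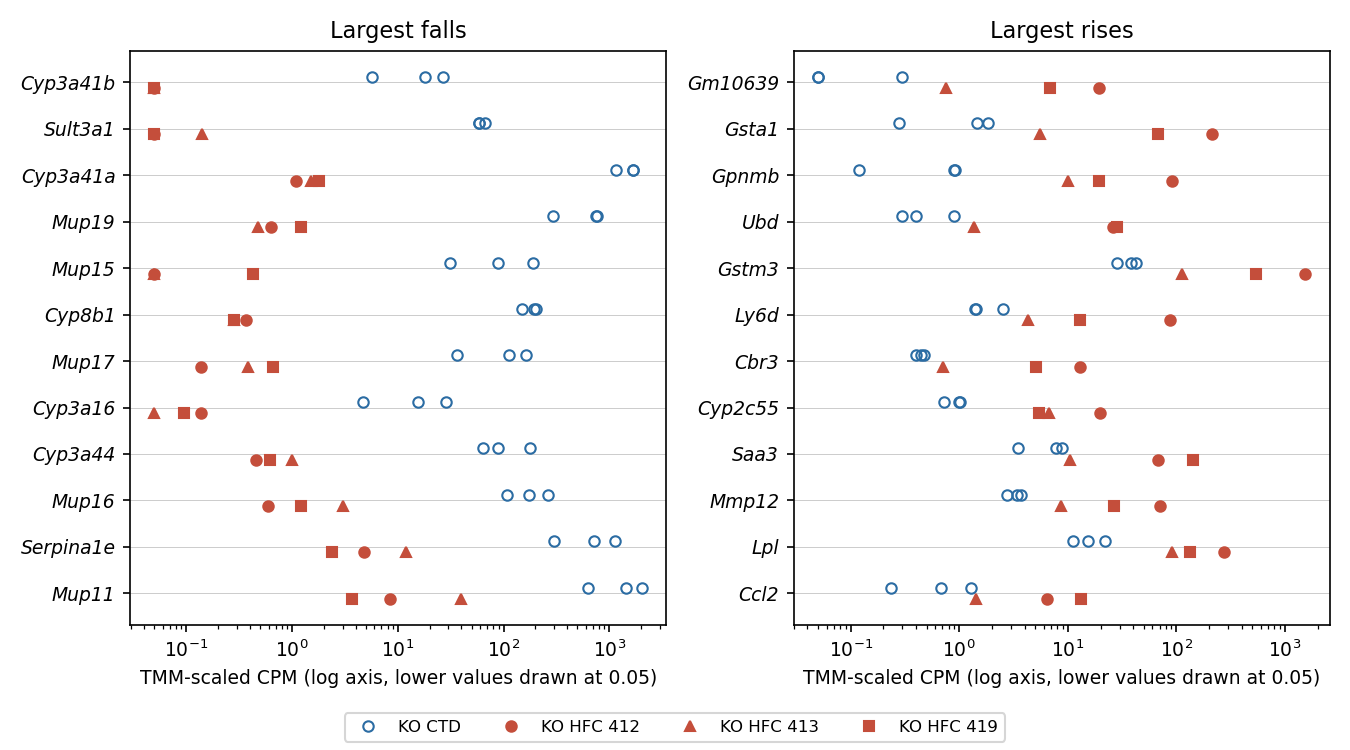
TMM-scaled CPM (log axis, values under 0.05 drawn at 0.05) in each KO female liver for the 12 largest falls (left) and the 12 largest rises (right) of called genes. Separation of the CTD and HFC livers was a condition for choosing these genes. Among the rises HFC 413 (triangle) is the HFC liver nearest to CTD at every gene except Cyp2c55.

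Sulfotransferases, which conjugate steroids, bile acids and drugs, fell in part. Of 15 tested genes of sulfation, 7 fell and none rose (median -1.37, 4 to 10 falls in fits without 1 animal, with 4 without CTD 309). For sulfation, 1 rose and 8 fell on library totals (median -1.08) and the median was -2.59 without HFC 419. Sult3a1 (chr10:33857721-33879532), a female-specific member, was at 58.6, 58.9 and 66.9 CPM in CTD livers and 0, 0.142 and 0 CPM in HFC livers, which is 3235 counts on CTD and 3 counts on HFC, all in HFC 413 (1320-fold, counting interval 450 to 6380, edgeR adjusted p = 3.2e-09). Sult5a1 (log2 -3.35 ± 0.42 SE, adjusted p = 0.00102), Sult1b1 (log2 -1.31 ± 0.16 SE, adjusted p = 0.000757), Sult1a1 (log2 -1.08 ± 0.24 SE, adjusted p = 0.0166, lost without CTD 307 or CTD 309, adjusted p 0.0508 to 0.0666) and Sult1d1 (log2 -0.86 ± 0.20 SE, adjusted p = 0.0195, lost without CTD 307, CTD 309 or HFC 412, adjusted p 0.0577 to 0.0823) fell, as did Papss2, which makes the sulfate donor (log2 -1.26 ± 0.22 SE, adjusted p = 0.00467). Sult2a1, named after its values were seen, was at 251, 263 and 243 CPM in CTD livers and 1.32, 2.42 and 172 CPM in HFC livers. Only HFC 419 kept a level near CTD, and the gene did not pass (adjusted p = 0.382).

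Not every female-predominant gene fell. Cyp2a4, a steroid hydroxylase, was at 781, 542 and 617 CPM in CTD livers and 1556, 1156 and 2119.7 CPM in HFC livers and was the 1 member to rise (log2 1.32 ± 0.22 SE, adjusted p = 0.00337). The steroid reductase Srd5a1, which is not in that list, was at 23.1, 21 and 24.5 CPM in CTD livers and 69.6, 56.7 and 51.3 CPM in HFC livers, with no overlap (log2 1.37 ± 0.15 SE, adjusted p = 0.000449). Cyp2c39 fell (log2 -1.69 ± 0.25 SE, adjusted p = 0.00175). On the male-predominant side, the fatty acid elongase Elovl3 was read 68 times on CTD and never on HFC (at least 27.7-fold lower, edgeR adjusted p = 0.00194), and the complement regulator Susd4 held 181 and 12 counts (18.4-fold, 10.3 to 36.3, edgeR adjusted p = 0.00112).

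Major urinary proteins, secreted pheromone carriers, fell most as a family. Of 19 tested Mup genes, 15 fell and none rose (median -5.30), with 11 to 16 falls in fits without 1 animal. For the Mup family, 1 rose and 17 fell on library totals (median -4.99) and 1 rose without HFC 419. All 21 listed genes summed to 22349, 10470.1 and 21059 CPM in the CTD livers and 2242, 2735 and 658 CPM in the HFC livers. Mup19 (chr4:61778324-61782269) was at 759, 290.3 and 743 CPM in CTD livers and 0.639, 0.474 and 1.23 CPM in HFC livers (log2 -9.57 ± 1.24 SE, adjusted p = 0.00199), and Mup15 held 5421 counts on CTD and 9 on HFC (735-fold, 387 to 1610, edgeR adjusted p = 0.00442). The Mup genes are near-identical copies and single members are uncertain. Serpina1e, an α1-antitrypsin copy with the same uncertainty, was at 302, 1121 and 722 CPM in CTD livers and 4.84, 12 and 2.4 CPM in HFC livers (log2 -6.80 ± 0.88 SE, adjusted p = 0.002, log2 -7.62 without HFC 413).

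Of 14 genes of growth hormone receptor and STAT5 signalling, 4 fell and none rose (median -0.09), beside 4.65% of all tested genes that fell. These falls depended on the animals included, with 0 to 5 falls in fits without 1 animal, with 0 without CTD 309, 1 without CTD 307 or HFC 412 and 2 without CTD 317 or HFC 419. For the growth hormone list, 1 rose and 3 fell on library totals (median 0.21). The receptor Ghr was at 402, 436 and 381 CPM in CTD livers and 148, 312 and 217 CPM in HFC livers (log2 -0.85 ± 0.21 SE, adjusted p = 0.0276, lost unless HFC 413 was left out, adjusted p 0.0541 to 0.0901). Igfals, which stabilises circulating IGF-1, was at 108, 129 and 102 CPM in CTD livers and 39.9, 83.7 and 46.2 CPM in HFC livers (log2 -0.996 ± 0.25 SE, adjusted p = 0.0294, lost unless HFC 413 was left out, adjusted p 0.0597 to 0.105). The binding protein Igfbp1 (log2 -1.62 ± 0.34 SE, adjusted p = 0.0153, lost without CTD 309, adjusted p 0.0568) and the transcription factor Onecut1 (log2 -1.83 ± 0.39 SE, adjusted p = 0.0158, lost without CTD 307, CTD 309 or HFC 412, adjusted p 0.0507 to 0.0737) completed the set.

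Glutathione transferases, which conjugate electrophiles, included the largest rises. Of 22 genes, 9 rose and 2 fell (median 0.25), with 6 to 9 rises in fits without 1 animal and 0 to 1 falls in fits without 1 animal, with 0 without CTD 307, CTD 309, CTD 317, HFC 412 or HFC 419 and 1 without HFC 413. For glutathione transferases, 10 rose and 1 fell on library totals (median 0.56) and the median was 0.04 without HFC 412. Gsta1 (chr9:78230656-78242684) was at 1.83, 0.278 and 1.47 CPM in CTD livers and 213, 5.55 and 67.7 CPM in HFC livers (log2 6.33 ± 1.20 SE, adjusted p = 0.0124, log2 4.94 without HFC 412, lost without CTD 309, adjusted p 0.0504). Gstm3 was at 42.3, 28.3 and 38.2 CPM in CTD livers and 1542, 114 and 546 CPM in HFC livers (log2 4.34 ± 0.77 SE, adjusted p = 0.00936, log2 3.19 without HFC 412). Gstm1 was at 1205, 844 and 1070.2 CPM in CTD livers and 7433, 2051 and 4918 CPM in HFC livers (log2 2.21 ± 0.39 SE, adjusted p = 0.00602). The order of the HFC livers was the same for all 3 genes, 412 highest and 413 lowest, and no HFC liver overlapped CTD. Gm10639, 85.4% identical to Gsta1, held 5 counts on CTD and 581 on HFC (95.2-fold, 40.6 to 294, edgeR adjusted p = 0.0196, lost without CTD 307, CTD 309 or CTD 317, adjusted p 0.0624 to 0.0762). Gstp1 (log2 1.64 ± 0.32 SE, adjusted p = 0.00879), its copy Gstp2 (log2 2.33 ± 0.39 SE, adjusted p = 0.004, 94.2% identical), Gstm4 (log2 1.14 ± 0.21 SE, adjusted p = 0.00602) and Gsta4 (log2 1.47 ± 0.29 SE, adjusted p = 0.0103) also rose. Gsta1 and Gsta2 are 97.2% identical, and counts of such copies are uncertain.

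Targets of NRF2, the oxidative stress regulator, rose in part. Of 17 targets, 8 rose and none fell, and all 17 had positive fold changes (median 0.70). There were 5 to 12 rises in fits without 1 animal, with 5 without CTD 307, CTD 309 or CTD 317. For NRF2 targets, 15 rose and none fell on library totals (median 1.01). The epoxide hydrolase Ephx1 was at 171, 150 and 156 CPM in CTD livers and 572, 471 and 909 CPM in HFC livers (log2 2.03 ± 0.21 SE, adjusted p = 0.000406), and Gclc, the catalytic subunit of glutathione synthesis, at 106, 109 and 142 CPM in CTD livers and 417, 271 and 393 CPM in HFC livers (log2 1.60 ± 0.21 SE, adjusted p = 0.00101). Nqo1, the quinone reductase, was at 7.26, 7.44 and 7.98 CPM in CTD livers and 26.3, 10.2 and 20.3 CPM in HFC livers (log2 1.32 ± 0.27 SE, adjusted p = 0.0108). All HFC livers were above all CTD livers at the 3 genes, and HFC 413 was the lowest of them. The glutathione subunit Gclm (log2 0.66 ± 0.13 SE, adjusted p = 0.00802), the dehydrogenase Ugdh (log2 1.32 ± 0.24 SE, adjusted p = 0.00636) and the carbonyl reductase Cbr3 (log2 3.82 ± 0.84 SE, adjusted p = 0.0191, log2 2.70 without HFC 412, lost without CTD 307, CTD 309 or CTD 317, adjusted p 0.072 to 0.0756) rose too. The antioxidant element TGACNNNGC was in 5 of 14 NRF2 target promoters and in 13.9% of all. The P450 enzyme Cyp2c55 rose from 1, 0.722 and 1.02 to 20, 6.64 and 5.47 CPM (log2 3.54 ± 0.51 SE, adjusted p = 0.00199, log2 2.72 without HFC 412). The aldehyde oxidase Aox1 rose from 26.5, 23.9 and 30.7 to 77.9, 51.5 and 90.1 CPM (log2 1.44 ± 0.18 SE, adjusted p = 0.000887). Of 23 P450 and other phase 1 enzyme genes, Aox1 among them, 2 rose and 2 fell (median -0.16), beside 3.94% and 4.65% of all tested genes. For phase 1 enzymes, 5 rose and 1 fell on library totals (median 0.14). Without HFC 413, 5 fell, and none fell when any other animal was left out.

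Nitrogen metabolism fell broadly. Of 19 genes of the urea cycle and amino acid breakdown, 13 fell and none rose (median -1.01, 7 to 14 falls in fits without 1 animal, with 7 without CTD 307 and 8 without HFC 412 or HFC 419). For nitrogen metabolism, 1 rose and 9 fell on library totals (median -0.71) and 1 rose without CTD 307. Ass1, which joins citrulline and aspartate, was at 5065, 4215 and 3799 CPM in CTD livers and 1466, 2025 and 1227 CPM in HFC livers (log2 -1.47 ± 0.25 SE, adjusted p = 0.00438). Asl, the next enzyme, was at 942, 754 and 715 CPM in CTD livers and 288, 306 and 288 CPM in HFC livers (log2 -1.45 ± 0.22 SE, adjusted p = 0.002). All HFC livers lay below all CTD livers at both genes, and HFC 413 was the highest of them. The aspartate transaminase Got1 (log2 -2.32 ± 0.37 SE, adjusted p = 0.00407), the ornithine carrier Slc25a15 (log2 -1.29 ± 0.19 SE, adjusted p = 0.00167) and the tyrosine transaminase Tat (log2 -1.88 ± 0.31 SE, adjusted p = 0.00333) fell with them.

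One-carbon and methionine metabolism showed the same direction. Of 17 genes, 11 fell and none rose (median -1.07, 9 to 12 falls in fits without 1 animal). For one-carbon metabolism, 1 rose and 11 fell on library totals (median -0.77). Mat1a, which makes S-adenosylmethionine in adult liver, was at 4665, 4449.6 and 4071 CPM in CTD livers and 1259, 2357 and 1839 CPM in HFC livers (log2 -1.27 ± 0.21 SE, adjusted p = 0.00356). Ahcy, which clears S-adenosylhomocysteine, was at 3079, 2640.1 and 2563 CPM in CTD livers and 859, 1258 and 1187 CPM in HFC livers (log2 -1.33 ± 0.21 SE, adjusted p = 0.0028). Neither gene overlapped between diets, and HFC 412 was lowest at both. The dimethylglycine dehydrogenase Dmgdh (log2 -1.42 ± 0.19 SE, adjusted p = 0.00102), the cystathionine lyase Cth (log2 -1.42 ± 0.20 SE, adjusted p = 0.00134), the serine hydroxymethyltransferase Shmt1 (log2 -1.07 ± 0.18 SE, adjusted p = 0.00335) and the homocysteine methyltransferase Bhmt2 (log2 -0.85 ± 0.14 SE, adjusted p = 0.0035) fell.

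Genes of the hepatocytes around the central vein, where Wnt ligands from endothelial cells set zonation, fell in part. Of 13 pericentral genes, 6 fell and none rose (median -0.60, 4 to 8 falls in fits without 1 animal). For pericentral genes, the median was -0.92 without HFC 413. Oat, which feeds ornithine into glutamate, was at 796, 726 and 805 CPM in CTD livers and 92.5, 164 and 124 CPM in HFC livers (log2 -2.61 ± 0.29 SE, adjusted p = 0.000509). Glutamine synthetase (Glul) was at 967, 836 and 1060.2 CPM in CTD livers and 331, 503 and 468 CPM in HFC livers (log2 -1.14 ± 0.18 SE, adjusted p = 0.00212). No HFC liver reached the CTD range at either gene. The glutamate carrier Slc1a2 (log2 -1.62 ± 0.24 SE, adjusted p = 0.00187) and the vitamin C enzyme Gulo (log2 -1.02 ± 0.16 SE, adjusted p = 0.00244) fell, as did Cyp2e1 (log2 -1.14 ± 0.32 SE, adjusted p = 0.042, lost unless HFC 413 was left out, adjusted p 0.0578 to 0.122).

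Of 18 hepatocyte identity markers, 6 fell and none rose (median -0.43), with 3 to 9 falls in fits without 1 animal, with 3 without CTD 307, CTD 309 or HFC 412. For hepatocyte identity, 1 rose and 4 fell on library totals (median -0.13). Albumin was among them (log2 -0.74 ± 0.19 SE, adjusted p = 0.0312, lost unless HFC 413 was left out, adjusted p 0.061 to 0.108), with the transcription factor Prox1 (log2 -0.66 ± 0.17 SE, adjusted p = 0.0272, lost unless HFC 413 was left out, adjusted p 0.0635 to 0.0882). The 18 markers summed to 201920, 200792 and 180949 CPM in the CTD livers and 120616, 137188 and 122409 CPM in the HFC livers. That sum, most of it Alb, moved with the falls above, and its part in them was not tested. Of 18 glucose and insulin genes, 4 fell and none rose (median -0.39, 3 to 8 falls in fits without 1 animal, with 8 without HFC 413). Glucose-6-phosphatase (G6pc) was at 671, 607 and 442 CPM in CTD livers and 121, 251 and 130.4 CPM in HFC livers (log2 -1.78 ± 0.32 SE, adjusted p = 0.00622), and Pck1, the entry enzyme of gluconeogenesis, at 2964, 3766 and 2928 CPM in CTD livers and 1503, 1688 and 1565 CPM in HFC livers (log2 -1.02 ± 0.20 SE, adjusted p = 0.0086). Both were lower in every HFC liver. The bifunctional enzyme Pfkfb1 (log2 -0.99 ± 0.15 SE, adjusted p = 0.00232) and the phosphatase Fbp1 (log2 -1.11 ± 0.24 SE, adjusted p = 0.0143, lost without CTD 307, adjusted p 0.0519) fell too.

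Lipid-associated and recruited macrophage genes rose. Of 18 such genes, 8 rose and none fell (median 1.89), with 5 to 13 rises in fits without 1 animal, with 5 without CTD 307, CTD 309 or CTD 317 and 13 without HFC 413. For these macrophage genes, 1 fell without HFC 412. Gpnmb (chr6:49036546-49070929), a membrane protein of lipid-laden macrophages, was at 0.118, 0.888 and 0.905 CPM in CTD livers and 90.5, 10.1 and 19.2 CPM in HFC livers (log2 5.94 ± 0.92 SE, adjusted p = 0.00497, log2 4.49 without HFC 412). Trem2, a lipid-sensing receptor, was at 3.31, 3.44 and 6.22 CPM in CTD livers and 25.2, 10.7 and 15.9 CPM in HFC livers (log2 2.00 ± 0.31 SE, adjusted p = 0.00255). The tetraspanin Cd9 was at 13.6, 10.8 and 13.1 CPM in CTD livers and 46.8, 24.9 and 27.5 CPM in HFC livers (log2 1.40 ± 0.21 SE, adjusted p = 0.002). The HFC livers lay above the CTD livers at all 3 genes, HFC 413 lowest. The elastase Mmp12 (log2 3.42 ± 0.64 SE, adjusted p = 0.0109, log2 2.41 without HFC 412, lost without CTD 309, adjusted p 0.0508) and the tetraspanin Cd63 (log2 2.48 ± 0.52 SE, adjusted p = 0.0181, log2 1.63 without HFC 412, lost without CTD 307 or CTD 317, adjusted p 0.0696 to 0.0755) rose as well.

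General macrophage markers did not pass. Of 24, none was called with all 6 animals (median 1.16), while all 24 had positive fold changes. For macrophage markers, 4 rose and none fell on library totals (median 1.46), 10 rose without HFC 413 and the median was 0.69 without HFC 412. Their summed level was 419, 914 and 973 CPM in the CTD livers and 2255, 696 and 1636 CPM in the HFC livers, so HFC 413 lay inside the CTD range and the others above it. No marker was at 0 in all 6 livers. The sum moved with the macrophage genes above in HFC 412 and 419. In HFC 413 it did not, since Gpnmb, Trem2 and Cd9 were above every CTD liver there. Its part in the rise of these genes was not tested. MHC class II genes, which present antigen, showed the same split. Their sum was 137, 299 and 262 CPM in the CTD livers and 1343, 252 and 1075 CPM in the HFC livers, and none of 10 passed with all animals (median 1.78). All 10 had positive fold changes. For MHC class II, 6 rose and none fell on library totals (median 2.08) and 6 rose without HFC 413. H2-DMb1, with the smallest p of the list, was at 3.54, 7.99 and 5.83 CPM in CTD livers and 30.4, 6.5 and 29.6 CPM in HFC livers (adjusted p = 0.0711, and 0.00566 without HFC 413). Of 11 Kupffer cell markers none passed (median 0.70). For Kupffer cell markers, 2 rose and none fell on library totals, 1 rose without HFC 413, 1 fell without CTD 307 and the median was 0.34 without CTD 307, 0.31 without HFC 412 and 0.40 without HFC 419. The scavenger receptor Cd163 was at 11.5, 26 and 24.3 CPM in CTD livers and 6.48, 6.02 and 11.3 CPM in HFC livers, lower in every HFC liver (adjusted p = 0.0659), while the list's median was 0.70.

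Some chemokine genes rose, and which ones passed depended on the animals included. Of 24 tested chemokines and receptors, 7 rose and 1 fell (median 1.84), with 1 to 16 rises in fits without 1 animal, with 1 without CTD 307, CTD 309, CTD 317 or HFC 412, 3 without HFC 419 and 16 without HFC 413. For chemokines, 15 rose and none fell on library totals (median 2.14), none fell without CTD 307, CTD 309, CTD 317 or HFC 419 and the median was 1.20 without HFC 412. Ccl2, which draws monocytes, was at 0.236, 1.28 and 0.679 CPM in CTD livers and 6.39, 1.42 and 13.1 CPM in HFC livers (log2 3.23 ± 0.83 SE, adjusted p = 0.0384, lost unless HFC 413 was left out, adjusted p 0.0692 to 0.127). The eosinophil attractant Ccl24 was at 1.65, 2.17 and 2.94 CPM in CTD livers and 11.9, 3.6 and 10.3 CPM in HFC livers (log2 1.93 ± 0.39 SE, adjusted p = 0.00998, lost without CTD 307, adjusted p 0.0507). HFC 413 lay just above the CTD range at both. Cxcl12 fell, from 357, 399.8 and 434 to 138, 296 and 216 CPM (log2 -0.87 ± 0.21 SE, adjusted p = 0.024, lost without CTD 307, CTD 309, CTD 317 or HFC 419, adjusted p 0.051 to 0.0844). Of 12 tested cytokine and itaconate genes 2 rose, Tnf, with 4 counts on CTD and 100 on HFC (20.5-fold, 7.76 to 76.7, edgeR adjusted p = 0.0238, lost unless HFC 413 was left out, adjusted p 0.0509 to 0.0931), and Il1a (log2 1.07 ± 0.30 SE, adjusted p = 0.0465, lost unless HFC 413 was left out, adjusted p 0.0637 to 0.165). For cytokines, 6 rose and none fell on library totals (median 1.40), none rose without CTD 307, CTD 309, CTD 317, HFC 412 or HFC 419 and 7 rose without HFC 413. The ubiquitin-like Ubd, induced by interferon and TNF, was at 0.295, 0.888 and 0.396 CPM in CTD livers and 26.3, 1.38 and 28.2 CPM in HFC livers (log2 5.12 ± 1.21 SE, adjusted p = 0.0299, lost unless HFC 413 was left out, adjusted p 0.0607 to 0.115), and was the 1 riser of 35 interferon and MHC class I genes, whose median was 0.44. For interferon genes, 9 rose and none fell on library totals (median 0.74), none rose without CTD 307, CTD 309, CTD 317, HFC 412 or HFC 419, 12 rose without HFC 413 and the median was 0.70 without HFC 413 and 0.13 without HFC 419. The acute-phase protein Saa3 was at 7.85, 3.44 and 8.88 CPM in CTD livers and 68.2, 10.4 and 142 CPM in HFC livers (log2 3.45 ± 0.84 SE, adjusted p = 0.034, lost unless HFC 413 was left out, adjusted p 0.0772 to 0.107). No T or NK cell marker of 20 passed (median 0.90), and the 1 of 12 neutrophil markers to pass was Mpo (log2 3.04 ± 0.81 SE, adjusted p = 0.037, lost unless HFC 413 was left out, adjusted p 0.0863 to 0.129). For T and NK cell markers, 4 rose and none fell on library totals (median 1.21) and 4 rose without HFC 413. For neutrophil markers, 5 rose and none fell on library totals (median 2.34), none rose without CTD 307, CTD 309, CTD 317, HFC 412 or HFC 419 and 3 rose without HFC 413.

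Endothelial markers and matrix genes passed in shares near the 3.94% of all tested genes that rose. Of 31 endothelial markers 1 rose, the sinusoidal Fc receptor Fcgr2b, at 26.7, 32.3 and 33.1 CPM in CTD livers and 44.4, 38.7 and 48.1 CPM in HFC livers (log2 0.51 ± 0.14 SE, adjusted p = 0.0437, lost unless HFC 413 was left out, adjusted p 0.0794 to 0.165). The list's median was 0.31, and 29 of its 31 fold changes were positive. Its summed level was 406, 536 and 529 CPM in the CTD livers and 584, 572 and 627 CPM in the HFC livers, higher in each HFC liver by a narrow margin. For endothelial markers, 13 rose and none fell on library totals (median 0.60), none rose without CTD 307, CTD 309, CTD 317, HFC 412 or HFC 419 and 3 rose without HFC 413. The adhesion molecule Icam1, which leukocytes bind, was at 13.5, 17.4 and 21.1 CPM in CTD livers and 53.4, 24.7 and 68.2 CPM in HFC livers (log2 1.49 ± 0.37 SE, adjusted p = 0.0312, lost unless HFC 413 was left out, adjusted p 0.06 to 0.117). It was the 1 riser of 9 tested endothelial activation genes, of which 5 had positive and 4 negative fold changes (median 0.21). For endothelial activation, 3 rose and none fell on library totals (median 0.51). Without HFC 413, 3 rose, and the median was 0.04 without HFC 412. None of 18 stellate cell markers passed, and Pdgfrb, with the smallest p, was at 6.61, 9.44 and 8.09 CPM in CTD livers and 13.6, 14.6 and 8.48 CPM in HFC livers (adjusted p = 0.112). For stellate cell markers, 5 rose and none fell on library totals (median 0.59), 1 rose without HFC 419 and 2 rose without HFC 413. Of 38 collagen and matrix genes 2 rose (median 0.47), with 1 to 9 rises in fits without 1 animal, with 1 without CTD 307, CTD 317 or HFC 412, 4 without HFC 413 and 9 without HFC 419. Fold changes were positive at 30 of the 38. For matrix genes, 13 rose and none fell on library totals (median 0.77), 1 fell without CTD 307 or HFC 413 and the median was 0.26 without CTD 307. Col5a3, a chain of type V collagen, was at 11.3, 6.94 and 10.3 CPM in CTD livers and 48.7, 24.3 and 31.7 CPM in HFC livers (log2 1.87 ± 0.25 SE, adjusted p = 0.00103). The glycoprotein Tnc was the other (log2 1.89 ± 0.54 SE, adjusted p = 0.0467, log2 2.78 without CTD 309, lost without CTD 307, CTD 317 or HFC 412, adjusted p 0.151 to 0.202). The main fibrillar collagen Col1a1, named after its values were seen, was at 5.9, 14.9 and 9.62 CPM in CTD livers and 57.3, 22 and 10.1 CPM in HFC livers (adjusted p = 0.114). HFC 412 alone was far above CTD, and HFC 419 lay inside the CTD range.

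Targets of p53, the stress-response factor that halts division, rose in part. Of 17 targets, 8 rose and none fell (median 0.57, 3 to 10 rises in fits without 1 animal, with 3 without CTD 317 and 5 without CTD 309 or HFC 419). The death receptor Eda2r was at 0.354, 0.999 and 0.283 CPM in CTD livers and 4.93, 4.17 and 5.47 CPM in HFC livers (log2 3.13 ± 0.46 SE, adjusted p = 0.00175, log2 3.91 without CTD 309). Bax, which opens mitochondria in apoptosis, was at 11.7, 10.5 and 13.5 CPM in CTD livers and 39.6, 19.5 and 34.3 CPM in HFC livers (log2 1.39 ± 0.20 SE, adjusted p = 0.00178). Phlda3, an AKT inhibitor, was at 1, 1.55 and 0.962 CPM in CTD livers and 7.49, 3.13 and 3.91 CPM in HFC livers (log2 2.04 ± 0.38 SE, adjusted p = 0.00705). No CTD liver reached the HFC range at these genes. The cell cycle inhibitor Cdkn1a (log2 2.48 ± 0.51 SE, adjusted p = 0.0158, log2 1.78 without HFC 412, lost without CTD 307 or CTD 317, adjusted p 0.0536 to 0.0646), Ccng1 (log2 0.66 ± 0.14 SE, adjusted p = 0.0131, lost without CTD 317 or HFC 419, adjusted p 0.0537 to 0.06) and Zmat3 (log2 0.92 ± 0.21 SE, adjusted p = 0.016, lost without CTD 309, CTD 317 or HFC 419, adjusted p 0.0614 to 0.0668) rose with them.

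Of 34 cell cycle genes 3 rose (median 1.10), beside 3.94% of all tested genes. There were 1 to 17 rises in fits without 1 animal, with 1 without CTD 307, CTD 309, CTD 317, HFC 412 or HFC 419 and 17 without HFC 413. For cell cycle genes, 21 rose and none fell on library totals (median 1.42) and the median was 0.50 without HFC 412. The mitotic kinase Cdk1 was at 1.12, 1.11 and 1.13 CPM in CTD livers and 7.94, 2.75 and 3.39 CPM in HFC livers (log2 2.06 ± 0.41 SE, adjusted p = 0.00875, log2 1.45 without HFC 412). The replication helicase subunit Mcm6 (log2 0.88 ± 0.23 SE, adjusted p = 0.0309, lost unless HFC 413 was left out, adjusted p 0.0779 to 0.113) and the transcription factor E2f1 (log2 1.06 ± 0.30 SE, adjusted p = 0.044, lost unless HFC 413 was left out, adjusted p 0.0655 to 0.146) were the others. Mki67, the proliferation marker, named after its values were seen, was at 3.13, 4 and 5.38 CPM in CTD livers and 38.5, 2.51 and 10 CPM in HFC livers, highest in HFC 412 and below every CTD liver in HFC 413 (adjusted p = 0.129). Of 12 tested cholangiocyte and ductular genes 3 rose, with a median of 0.14. For ductular genes, 1 rose without CTD 307, CTD 317 or HFC 412 and the median was 0.65 without CTD 309, -0.08 without CTD 317 and -0.27 without HFC 412. Prom1 (chr5:43993620-44102032), a progenitor surface protein, was at 1, 2.11 and 0.736 CPM in CTD livers and 16.2, 11.1 and 8.76 CPM in HFC livers, above CTD in each HFC liver (log2 3.22 ± 0.37 SE, adjusted p = 0.000621). The keratin Krt8 (log2 1.01 ± 0.28 SE, adjusted p = 0.0408, lost without CTD 307, CTD 309, CTD 317 or HFC 412, adjusted p 0.0756 to 0.132) and the cadherin Cdh1 (log2 0.99 ± 0.27 SE, adjusted p = 0.0424, lost without CTD 307, CTD 317, HFC 412 or HFC 413, adjusted p 0.0533 to 0.166) also rose.

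Whether the diet response depended on endothelial c-Myc was asked against floxed control females. In CT females HFC changed 307 of 13999 genes (2.19%), 131 higher (0.936%) and 176 lower (1.26%). Of these, 255 were also called in KO females, with the same sign in all 255, which is 83.1% of the CT calls and 21.2% of the KO calls. Called or not in CT females, 1188 of the 1202 KO calls (98.8%) had the same sign there. Taken in the KO direction, the median change of the 1202 was 0.62 in CT and 0.975 in KO females. They were picked on their KO values, which favours a larger KO median. No animal is shared between the comparisons. The difference between the diet effects of KO and CT females, tested as an interaction, passed at 0 of 13999 genes (0%, smallest edgeR adjusted p = 0.9917). At an unadjusted p under 0.05 there were 546 genes, a smaller share than the 0.05 that would pass on average with no difference at any gene. DESeq2 and limma also called 0. Without HFC 413 edgeR called 1 gene, Lrrc3 (log2 -1.17, KO minus CT, adjusted p = 0.0451). In that fit 1516 genes had an unadjusted interaction p under 0.05, a larger share than 0.05, against 323 to 749 when any other animal was left out.

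**Figure D4:**
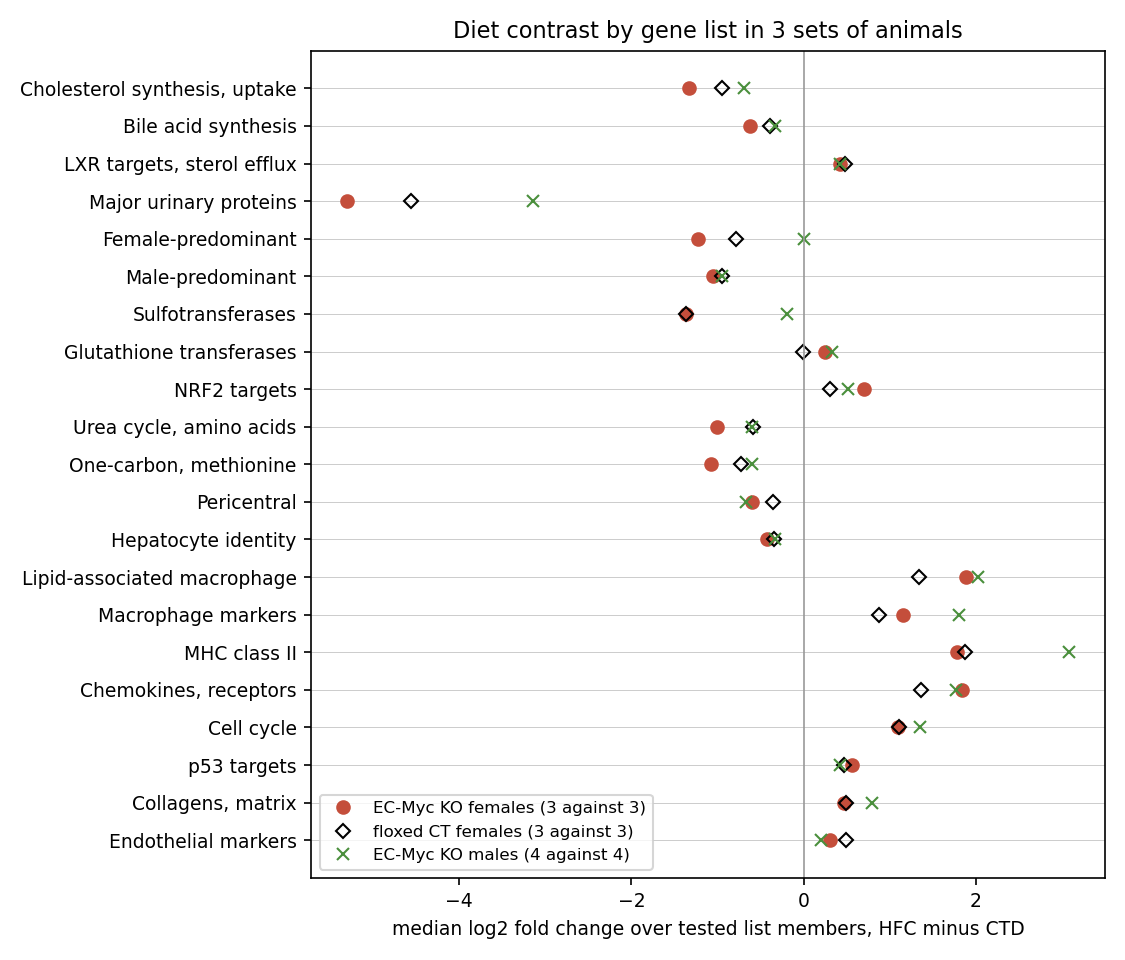
Median log2 fold change of HFC over CTD across the tested members of each list (horizontal axis) in EC-Myc KO females, floxed CT females and EC-Myc KO males. The KO female and CT female symbols lie on the same side of 0 for each list plotted except glutathione transferases, where the CT median is near 0.

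Leading genes of the KO comparison are given beside their values in CT females. Cyp8b1 was at -9.16 in KO and -8.09 in CT females (adjusted p = 5.34e-08 in CT), and Cyp3a41a at -9.99 and -9.12 (adjusted p = 9.97e-05). Idi1 was at -2.41 and -2.52, Lpl at 3.37 and 2.61, Prom1 at 3.22 and 3.17, and Ephx1 at 2.03 and 2.05. The values lay further apart for Gclc (1.60 and 0.62), Trem2 (2.00 and 0.78) and Glul (-1.14 and -0.35), with unadjusted interaction p of 0.00522, 0.0152 and 0.00697, none of which passed after adjustment. The 3 genes with the smallest interaction p were Sult3a1, Oser1 and Elovl3 (unadjusted p of 0.00027, 0.00135 and 0.00151). Sult3a1 stood at 55.3 ± 4.97 CPM in CT females on CTD and 0.445 ± 0.131 CPM on HFC (SD, n = 3), so it was near 0 on HFC in both genotypes. The stress-response gene Oser1 was at 0.40 in KO and -0.14 in CT females.

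KO males allowed a comparison across sexes. HFC changed 3386 of 14685 genes in KO males (23.1%), 2092 higher (14.2%) and 1294 lower (8.81%), in 4 animals against 4. Of the 1202 genes called in KO females, 803 were also called in KO males (66.8% of the KO female calls, 24.3% of the 3298 male calls tested in both), 798 with the same sign and 5 with the opposite one. The diet effect itself differed between KO females and KO males at 23 of 14685 genes (0.157%, edgeR), 8 more positive in females and 15 more negative. The sexes come from separate tables, and sex and whatever else differed between the tables cannot be told apart. Leaving out 1 female animal gave 13 (without CTD 309) to 82 (without HFC 413) genes, and DESeq2 gave 118.

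Cyp3a41a had the largest difference of the 23, with -9.99 in KO females and 1.70 in KO males (difference -11.70 ± 1.43 SE, adjusted p = 0.000244). Carbonic anhydrase 2 (Car2) was in females at 15, 19.6 and 16.8 CPM in CTD livers and 7.67, 7.21 and 9.61 CPM in HFC livers and fell (log2 -1.07 ± 0.15 SE, adjusted p = 0.00134), while it rose in males (log2 0.44, adjusted p = 0.00787). Actg1, a cytoskeletal actin, fell in females (log2 -0.96 ± 0.20 SE, adjusted p = 0.0121, lost without CTD 309, adjusted p 0.0577) and rose in males (log2 0.64, adjusted p = 0.00773). Col5a3 (1.87 and 0.23), Srd5a1 (1.37 and 0.01) and Fabp2 (1.60 and 0.15) rose in females and did not pass in males. The aldehyde dehydrogenase Aldh3b3 stayed within 4.61 to 7.49 CPM in the 6 females and rose in males (4.73, adjusted p = 6.15e-05).

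**Figure D5:**
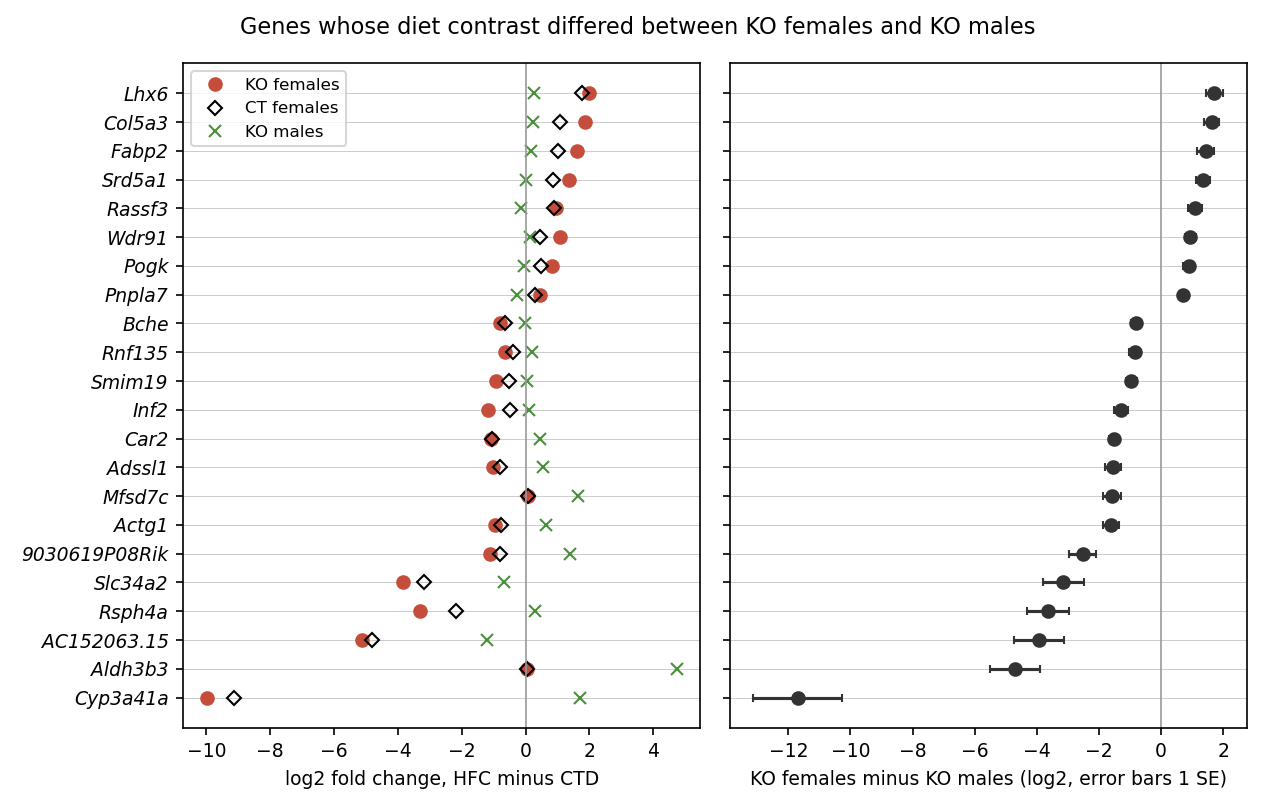
22 of the genes whose diet contrast differed between KO females and KO males: log2 fold changes of HFC over CTD in KO females, CT females and KO males (left), and the female minus male difference with 1 SE (right). CT females, which are in the fit but not in the contrast tested, lie beside KO females at most of the genes.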

How the data were processed

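Raw gene counts and library-size-scaled counts (CPM) of 12 female and 16 male liver libraries came as 1 table of each kind per sex, and per the labels each library is 1 animal. The raw counts were produced by the authors from DNBSEQ reads, and the deposited CPM equal those counts over library totals within 0.0001 CPM in 100% of values. The submitters' processing notes list GRCm38, mm10, FastQC and edgeR. Aligner, counter, annotation and strand setting were not given in the sources used here, so overlapping and near-identical genes may have been split. No column of per-sample values was left out. Some genes that the rules below select are not reported here.

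In R 4.3.3, edgeR 4.0.16 was run on the raw counts of all 12 female libraries (TMM factors, filterByExpr, robust quasi-likelihood F test, Benjamini-Hochberg adjustment, adjusted p under 0.05 called), with 1 mean per group, so that the 4 groups share 1 estimate of the spread. The comparison with males used all 28 libraries. The p-values measure the spread between these animals. SE is the absolute log2 fold change over the square root of F, an approximation. Depth was 18786081 to 19195502 counts per KO female library, and 95% counting intervals and the floor of 3 counts cover counting error only, since reads without molecular identifiers are not independent molecules. Replicates of each group differed by more than sampling noise. Scripts were tested on simulated data.

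The members and the 56 gene lists (1015 genes) were chosen with earlier results of these data known. Named genes are Myc, the 12 largest rises and falls among called genes that averaged at least 5 CPM in a group and did not overlap, up to 6 called members per list by adjusted p (or 2 with the smallest p), and up to 20 called genes of the interaction and sex difference (or 3 with the smallest p). Col1a1, Hmgcs1, Lrrc3, Mki67, Sqle, Srebf2 and Sult2a1 were named after their values were seen. GENCODE vM21 coordinates on GRCm38 matched 96.5% of names. RefSeq promoters (GRCm38.p6) matched 10430 of 13999 tested genes (74.5%). The 250 bases before the start were searched on both strands for 14 motifs, CCAAT, TCACNCCAC, TCACNNCAC, TGACNNNGC, TTCNNNGAA, CAAAGTCCA, GGACTTTGN and TTATGNAA, and by name the longer direct repeats DR1 and DR4, the paired p53 half-sites, a strict and a loose NF-κB site and the HNF1 site. The looser forms overlap the strict ones, and the motifs reported were chosen after the matches were seen. Identity between transcripts and promoters was computed with Biopython 1.88, counting intervals with SciPy 1.17.1 and figures with matplotlib 3.10.9.

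The alternatives were library totals or RLE size factors, DESeq2 1.42.0, other filters on low counts, only the groups compared, limma 3.58.1 on log2 of the deposited CPM plus 0.5 or 2, and leaving out each KO female animal. List counts without HFC 413 were added after the data were seen.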

Additional observations from a re-analysis of the deposited data

Results flagged for a closer look

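The diet effect differed between KO females and KO males at 23 genes by edgeR's test of the difference itself (adjusted p under 0.05), and values here are the log2 change in KO females minus that in KO males. It was more positive in females at 8 genes, Col5a3 (1.64), Lhx6 (1.72), Srd5a1 (1.35), Pnpla7 (0.72), Fabp2 (1.43), Wdr91 (0.94), Pogk (0.88) and Rassf3 (1.09). It was more negative in females at 15 genes, of which 14 are given. The widest of these were Cyp3a41a (-11.70), Aldh3b3 (-4.70), 9030619P08Rik (-2.52), Rsph4a (-3.64), AC152063.15 (-3.94) and Slc34a2 (-3.15). Smaller differences were at Car2 (-1.51), Actg1 (-1.61), Adssl1 (-1.55), Mfsd7c (-1.57), Inf2 (-1.29), Bche (-0.81), Smim19 (-0.95) and Rnf135 (-0.85). Sex cannot be told apart from whatever else differed between the 2 separately deposited tables. Cyp3a41a is a female-specific gene in mouse liver, and its fold change in males (1.70, adjusted p = 0.333) was not called. The groups of 3 animals are too small for a search for outlying samples.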

How the results depend on the processing

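The KO female count of 1202 genes became 3738 on library totals, 1884 with DESeq2, 435 with only the groups compared, 3361 and 3368 with limma (pseudocounts 0.5 and 2) and 565 to 2671 without 1 animal, highest without HFC 413. Of the 1202 genes, 921 were called on library totals, and none of the 1202 took the opposite sign in any alternative. With only the groups compared, list calls were fewer too. Falls went from 19 to 12 for cholesterol genes, 13 to 7 for nitrogen metabolism and 4 to 0 for growth hormone signalling. Rises went from 9 to 3 for glutathione transferases and 8 to 3 for NRF2 targets. Rises of lipid-associated macrophage genes went from 8 to 4 and of chemokines from 7 to 1. Falls held better for Mup genes (15 to 13) and one-carbon metabolism (11 to 9). The interaction count was 0, and 0 to 1 without 1 animal, the 1 without HFC 413. The sex difference count of 23 became 118 with DESeq2, 8 with only the groups compared, 37 and 56 with limma and 13 to 82 without 1 animal. The Myc change of -0.24 turned to 0.0524 on library totals, to 0.0862 and 0.0769 with limma, and ranged from -0.50 to 0.41 without 1 animal. Mylpf, a skeletal muscle marker that was not called, moved from 0.26 to between -0.00659 and 0.54 without 1 animal. Over all alternatives, named genes of the KO female comparison kept their direction and side of the threshold in 2196 cases, were no longer called in 466, became called in 55 and turned sign in 6, and those of the sex difference kept both in 270 and were no longer called in 52. The cause of these moves was not tested, beyond the smaller number of animals in fits without 1 animal. No paired analysis was possible because each animal carries its own number. With 3 animals per diet, a gene that did not pass is not shown to be unchanged.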

Other observations

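Genes of several groups not described above changed in KO female livers on HFC. Their counts stand beside 3.94% of all tested genes that rose and 4.65% that fell. Of 18 circadian clock genes 5 fell and none rose (median -0.54, 1 to 7 falls in fits without 1 animal, with 1 without CTD 309 and 2 without CTD 307 or CTD 317). For the clock list, 2 rose and 5 fell on library totals (median -0.25) and the median was -0.32 without HFC 412. The repressor Ciart was at 25.4, 30.8 and 23.8 CPM in CTD livers and 4.25, 5.69 and 7.68 CPM in HFC livers (log2 -2.18 ± 0.34 SE, adjusted p = 0.00329). Hlf (log2 -0.83 ± 0.19 SE, adjusted p = 0.0158, lost without CTD 309 or CTD 317, adjusted p 0.0503 to 0.0594), Per3 (log2 -1.31 ± 0.29 SE, adjusted p = 0.0197, lost without CTD 307, CTD 309 or CTD 317, adjusted p 0.0523 to 0.0615) and Cry1 (log2 -1.17 ± 0.28 SE, adjusted p = 0.0216, lost without CTD 307, CTD 309 or HFC 412, adjusted p 0.0648 to 0.0775) fell too. Of 13 genes of the mitochondrial genome 4 fell and none rose (median -0.60, 2 to 4 falls in fits without 1 animal, with 2 without CTD 317, HFC 412 or HFC 419), led by the complex I subunit mt-Nd5 (log2 -1.04 ± 0.19 SE, adjusted p = 0.00647). They summed to 129892, 113816 and 139722 CPM in the CTD livers and 94182, 82276 and 91876 CPM in the HFC livers, without overlap. Of 14 glucuronosyltransferases 4 fell and 1 rose (median -0.34), among them Ugt1a5 (log2 -2.82 ± 0.49 SE, adjusted p = 0.00774, log2 -3.48 without HFC 413), whose exons overlap those of other Ugt1a genes. For glucuronosyltransferases, 3 rose and 2 fell on library totals (median -0.05), none rose without CTD 307, CTD 309, HFC 412 or HFC 419, 2 rose without HFC 413, 2 fell without CTD 307, CTD 317 or HFC 419 and the median was -0.13 without HFC 412. Of 15 aldo-keto reductases 2 rose and 2 fell (median -0.02). For aldo-keto reductases, 5 rose and 2 fell on library totals (median 0.28), 1 rose without CTD 307, CTD 317 or HFC 412, 4 rose without HFC 413 and the median was 0.09 without HFC 412. Akr1b7, which reduces lipid aldehydes, was at 1.54, 2.66 and 2.77 CPM in CTD livers and 22.1, 5.26 and 15.1 CPM in HFC livers (log2 2.60 ± 0.46 SE, adjusted p = 0.00682).

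Calls among plasma protein genes depended on the animals and the scaling. Over all tested genes 3.94% rose and 4.65% fell, the background for each list in this paragraph. Of 28 coagulation and complement genes 3 fell, F7, Masp2 and Plg (median -0.34). For coagulation and complement, 3 rose and none fell on library totals (median -0.04), none fell without CTD 309, CTD 317, HFC 412 or HFC 419 and 10 fell without HFC 413. Of 25 acute-phase genes 2 rose and 3 fell (median 0.08). For acute-phase genes, 6 rose and none fell on library totals (median 0.39), none rose without CTD 307, CTD 317, HFC 412 or HFC 419, 1 rose without CTD 309, 8 rose without HFC 413, none fell without CTD 307, CTD 309, CTD 317 or HFC 419, 1 fell without HFC 412 and the median was -0.16 without HFC 412 and 0.32 without HFC 413. The metallothionein Mt1 was at 516, 552 and 579 CPM in CTD livers and 314, 184 and 258 CPM in HFC livers (log2 -1.12 ± 0.28 SE, adjusted p = 0.0278, lost without CTD 307, CTD 309, CTD 317 or HFC 419, adjusted p 0.0669 to 0.0808). Of 18 genes of lipoprotein assembly 2 fell, Apom (log2 -1.23 ± 0.29 SE, adjusted p = 0.0219, lost without CTD 307, CTD 309 or CTD 317, adjusted p 0.0518 to 0.0743) and Apoh (log2 -0.61 ± 0.17 SE, adjusted p = 0.0408, lost unless HFC 413 was left out, adjusted p 0.0954 to 0.12), with a median of -0.25. For lipoprotein assembly, 2 rose and 1 fell on library totals (median 0.06), 1 rose without HFC 413, none fell without CTD 307, CTD 309 or CTD 317 and 1 fell without HFC 412 or HFC 419. Of 24 genes of the unfolded protein and integrated stress responses 2 rose, Chac1 (log2 0.92 ± 0.22 SE, adjusted p = 0.0237, lost without CTD 307, CTD 317 or HFC 419, adjusted p 0.071 to 0.1) and Trib3 (log2 0.94 ± 0.26 SE, adjusted p = 0.0398, lost without CTD 307, CTD 309, CTD 317, HFC 412 or HFC 413, adjusted p 0.0558 to 0.138). For stress response genes, 8 rose and none fell on library totals (median 0.47), none rose without CTD 307 and 1 rose without CTD 309, CTD 317, HFC 412 or HFC 419. None of 13 B and plasma cell markers and none of 10 dendritic cell markers passed (medians 0.13 and 0.69). For B and plasma cell markers, the median was -0.14 without CTD 307, 0.38 without CTD 317 and -0.08 without HFC 419. For dendritic cell markers, 3 rose and none fell on library totals (median 0.99), 3 rose without HFC 413 and the median was 0.34 without HFC 412. Erythroid markers summed to 258, 289 and 425 CPM in the CTD livers and 1005, 344 and 662 CPM in the HFC livers. Of 6, 1 rose with all animals, Alas2 (log2 0.73 ± 0.15 SE, adjusted p = 0.0119, lost without CTD 307 or CTD 309, adjusted p 0.0517 to 0.059), with a list median of 1.07. For erythroid markers, 5 rose and none fell on library totals (median 1.38), none rose without CTD 307 or CTD 309, 6 rose without HFC 413 and the median was 0.68 without HFC 412. Ly6d, a surface protein among the 12 largest rises, was at 1.42, 1.39 and 2.55 CPM in CTD livers and 87.1, 4.27 and 13 CPM in HFC livers (log2 4.28 ± 0.99 SE, adjusted p = 0.0281, log2 2.27 without HFC 412, lost without CTD 307, CTD 309 or CTD 317, adjusted p 0.075 to 0.104).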
